A study of Mus musculus with 24 samples.

Results

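The germline genes Dppa3, Prdm1, Nanos3, Dnd1, Dazl, Ddx4, Kit, Sycp3 and Mael were followed through 10 RNA libraries of mouse embryonic stem cells and embryoid bodies. These 9 genes, out of 53379 in the expression files, were picked by symbol, with results of the same libraries already known: the lower germline expression of wild-type embryoid bodies than of stem cells, and the high Dppa3 of Smad2-/- embryoid bodies. Values from those contrasts, and from every other contrast that uses the Smad2-/- libraries, are therefore given as a description with no p-value. Counts of genes called in those contrasts are a description too. Smad2/3DKO and Smad3-/- against wild type share the wild-type libraries with the contrasts behind the choice, so their p-values are not free of it. All cells were of the E14Tg2a.IV line, an established mouse embryonic stem cell line, and each group had 2 libraries. The day 4 groups were embryoid bodies, aggregates that differentiate in medium free of leukaemia inhibitory factor (LIF), of the genotypes Smad2/3DKO (both genes knocked out), Smad2-/-, Smad3-/- and wild type. The fifth group was wild-type stem cells at day 0. Nothing in the labels says whether replicates came from separate cultures, or how many clones stand behind a genotype. A p-value here therefore sets a difference against the variation between libraries of the same group, which may be technical. This variation was estimated over all 5 groups together, not from the compared groups alone. The study also made chromatin immunoprecipitation libraries, which were not analysed here.

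Primordial germ cells, the precursors of eggs and sperm, are set aside in the mouse epiblast by BMP and WNT signals that switch on Prdm1, Prdm14 and Tfap2c. They then express Dppa3, Nanos3, Dnd1 and Kit, and later Dazl, Ddx4 and the genes of meiosis and of the germ granule. SMAD2 and SMAD3 carry the Nodal and activin signal from the membrane to the nucleus. Many germline genes are repressed in somatic cells by DNA methylation and by a Polycomb-like complex that holds E2F6, MGA and MAX, and embryonic stem cells are known to express several of them.

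Promoters of 4 of these genes are shown because they belong to a class known to be silenced by DNA methylation, and because binding letters of that complex can be looked for in them. RefSeq promoter sequences (GRCm38.p6, 250 bases before to 50 after the start) were found for 7 of the 9 genes, all except Dppa3 and Dnd1. Capitals mark the E-box CACGTG and the E2F-type motif TCCCGC, searched on both strands, with no overlap between the 2 motifs in these windows. Sequences run 5′ to 3′ on the gene's strand, from chr13:112652261-112652560 (minus strand), chr10:88459337-88459636 (plus), chr1:166238695-166238994 (minus) and chr17:50293571-50293870 (minus).
Ddx4: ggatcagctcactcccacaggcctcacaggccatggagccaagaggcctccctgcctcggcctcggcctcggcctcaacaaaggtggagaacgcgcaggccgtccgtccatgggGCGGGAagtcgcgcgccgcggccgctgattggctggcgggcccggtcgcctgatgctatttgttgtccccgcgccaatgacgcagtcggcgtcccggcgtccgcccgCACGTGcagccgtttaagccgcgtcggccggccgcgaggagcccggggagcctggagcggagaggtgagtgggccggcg
Sycp3: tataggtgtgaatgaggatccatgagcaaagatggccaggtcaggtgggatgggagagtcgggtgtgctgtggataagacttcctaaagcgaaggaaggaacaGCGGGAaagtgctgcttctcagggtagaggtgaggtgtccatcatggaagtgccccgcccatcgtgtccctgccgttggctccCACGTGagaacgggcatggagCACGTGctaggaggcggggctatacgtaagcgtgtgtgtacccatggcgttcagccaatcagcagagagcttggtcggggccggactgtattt
Mael: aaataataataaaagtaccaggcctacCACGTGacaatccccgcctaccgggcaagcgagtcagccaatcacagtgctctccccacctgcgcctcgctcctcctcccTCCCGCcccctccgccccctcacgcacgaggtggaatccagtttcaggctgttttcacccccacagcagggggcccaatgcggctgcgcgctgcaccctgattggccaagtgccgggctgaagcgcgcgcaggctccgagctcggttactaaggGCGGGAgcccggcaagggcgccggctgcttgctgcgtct
Dazl: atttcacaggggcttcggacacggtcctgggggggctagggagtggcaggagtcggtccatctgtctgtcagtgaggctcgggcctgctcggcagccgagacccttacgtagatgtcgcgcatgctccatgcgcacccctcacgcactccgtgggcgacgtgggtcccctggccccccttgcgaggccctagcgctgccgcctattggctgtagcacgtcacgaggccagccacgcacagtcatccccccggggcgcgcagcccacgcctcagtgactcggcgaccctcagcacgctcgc
Ddx4, Sycp3 and Mael held both motifs, against 1.99% of 32851 mouse promoters of the same length. Both motifs contain a CpG, and these promoters were not matched for CpG content, so no excess is read from this share. The E-box alone was in 7.15% of promoters and the E2F-type motif in 6562 of the 32851. In Ddx4 the E-box began 29 bases before the start and the E2F-type motif 136 bases before it. Sycp3 held 2 E-boxes, beginning 64 and 43 bases before the start, and 1 E2F-type motif 147 bases before it. Mael held an E-box 223 bases before the start and E2F-type motifs 143 bases before it and at base 12 of the transcript. Kit held 2 E2F-type motifs and no E-box, and Prdm1, Nanos3 and Dazl held neither. The ratio of observed to expected CpG was 0.978 in Ddx4, 0.666 in Sycp3, 0.780 in Mael, 0.795 in Dazl, 0.766 in Prdm1, 0.621 and 0.652 in the 2 Kit windows and 0.131 in Nanos3, against a median of 0.384 over all promoters. A match is a description of letters, not of binding.

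Library totals ran from 35733249 to 53672980 expected counts. Values below are in CPM, counts scaled to TMM-adjusted library totals, which compare 1 gene between libraries, or in TPM, which correct for transcript length and compare genes. The 2 Smad2-/- libraries stood apart from each other: T (Brachyury), a primitive streak gene, had 74.3 CPM in replicate 1 and 0.790 CPM in replicate 2. Smad2 itself had 22.2 to 22.7 CPM in Smad2/3DKO, 19.2 to 20.4 in Smad2-/-, 38.3 to 39.3 in Smad3-/- and 38.3 to 49.9 in wild-type day 4 libraries. The Smad2 range of wild-type day 0 libraries held both Smad2-/- libraries and lay below both Smad2/3DKO libraries. A Smad2 count lower than in wild type at day 4 therefore does not by itself check these labels. Smad3 had 25.7 to 28.0 CPM in Smad2/3DKO, 30.8 to 31.0 in Smad2-/-, 48.7 to 49.7 in Smad3-/- and 42.0 to 44.9 in wild-type day 4 libraries, so its gene-level count was not lower under the Smad3-/- label and does not check it. Ribosomal protein genes took 12.3 to 13.1% of counts in Smad2-/- and 11.2 to 15.2% in day 0 libraries, against 5.57 to 7.67% in the other 6 libraries. The fold change also followed gene length in the contrasts that set these 4 libraries against others, with a Spearman correlation across 19470 genes of -0.50 for Smad2-/- against wild type and 0.44 for Smad2/3DKO against Smad2-/-. It was 0.04 for Smad2/3DKO against Smad3-/-. The part of this trend in any one gene was not tested.

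Dppa3 (also called Stella; chr6:122626410-122630272, plus strand, mm10) encodes a protein that guards maternal DNA methylation in the zygote. It marks early germ cells and also part of naive stem cell cultures. Dppa3 had 20.7 and 15.9 CPM in Smad2/3DKO embryoid bodies, 21.2 and 84.3 in Smad2-/-, 3.38 and 2.59 in Smad3-/-, 6.97 and 6.58 in wild-type embryoid bodies, and 24.6 and 19.3 in day 0 stem cells. The group means ran from 52.8 ± 44.6 CPM in Smad2-/- through 21.9 ± 3.76 at day 0, 18.3 ± 3.40 in Smad2/3DKO and 6.78 ± 0.275 in wild type to 2.98 ± 0.555 in Smad3-/- (SD, n = 2 each). The day 0 range held the lower Smad2-/- library and the higher Smad2/3DKO library, so in CPM neither genotype was separate from day 0. Per length both lay above it, with 50.6 and 39.5 TPM in Smad2/3DKO and 29.6 and 113 TPM in Smad2-/-, against 26.4 and 26.8 TPM at day 0. Wild-type and Smad3-/- embryoid bodies lay below those 3 groups and did not overlap each other.

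Between Smad2/3DKO and Smad3-/- embryoid bodies, a contrast that shares no library with those behind the choice of genes, Dppa3 was 6.13-fold higher in the means (log2 fold change 2.61, SE 0.54; edgeR quasi-likelihood test, adjusted p = 0.0110). It was the only 1 of the 9 genes to pass there, where 15.5% of the 19470 genes tested passed an adjusted p under 0.05, 7.53% higher and 8.01% lower. The spread behind this test was pooled over all 5 groups, so it took in the 3.98-fold difference in Dppa3 between the 2 Smad2-/- libraries. The call was lost without Smad3-/- replicate 1 (log2 fold change 2.81), without Smad3-/- replicate 2 (2.43) or without Smad2/3DKO replicate 1 (2.41), by the same edgeR test. It held under the other 18 alternatives. Where no library was left out, the highest adjusted p was 0.0142, by edgeR with a replicate block. The lowest, 2.69e-17, came from edgeR with no filter at an unchanged log2 fold change of 2.61, and is not read as stronger evidence. Against wild type, Dppa3 in Smad2/3DKO embryoid bodies was 1.43 higher on the log2 scale (SE 0.51) and missed the threshold (edgeR adjusted p = 0.0724). In Smad3-/- embryoid bodies it was 1.18 lower than in wild type (log2 fold change -1.18, SE 0.52; edgeR adjusted p = 0.289). Both of these contrasts share the wild-type libraries with the contrasts behind the choice.

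Smad2-/- exceeded wild type by a log2 fold change of 2.96 (SE 0.53), but the 2 Smad2-/- libraries differed 3.98-fold. The names of the deposited tables form 2 series, the second holding replicate 2 of every group except Smad2/3DKO; within the first series the log2 difference was 1.60, and within the second it was 3.68. Per length, wild-type embryoid bodies stood at 15.6 and 14.3 TPM, also below both Smad2-/- libraries. Among 1539 genes of 700 to 1000 bases, close to the 833 bases of Dppa3, the median log2 fold change of this contrast was 0.79. Dppa3 was chosen with its high value here known, so its place among them is no test. The summed level of 16 other pluripotency genes was 1690 to 2410 TPM in Smad2/3DKO, 2930 to 4700 in Smad2-/-, 1880 to 1930 in Smad3-/- and 2750 to 2890 in wild-type embryoid bodies, against 9020 to 10000 TPM at day 0. Both Smad2/3DKO libraries were thus below wild type in this sum and above it in Dppa3. Gene by gene, 3 of the 16 were called higher and 2 lower in Smad2/3DKO against wild type, beside 10.8% and 12.3% of all genes. In Smad2/3DKO against Smad3-/- 7 were called higher and 1 lower, beside 7.53% and 8.01% of all genes. Between Smad2-/- and wild type, 8 of these 16 genes were called higher and 0 lower, where 15.4% of all genes tested were called higher. The part of such cells in the Dppa3 level was not tested, and in bulk libraries fewer cells of a type and less RNA per cell cannot be told apart. Its counts were not whole in 7 of 10 libraries, which marks reads shared with similar sequences elsewhere.

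**Figure D1:**
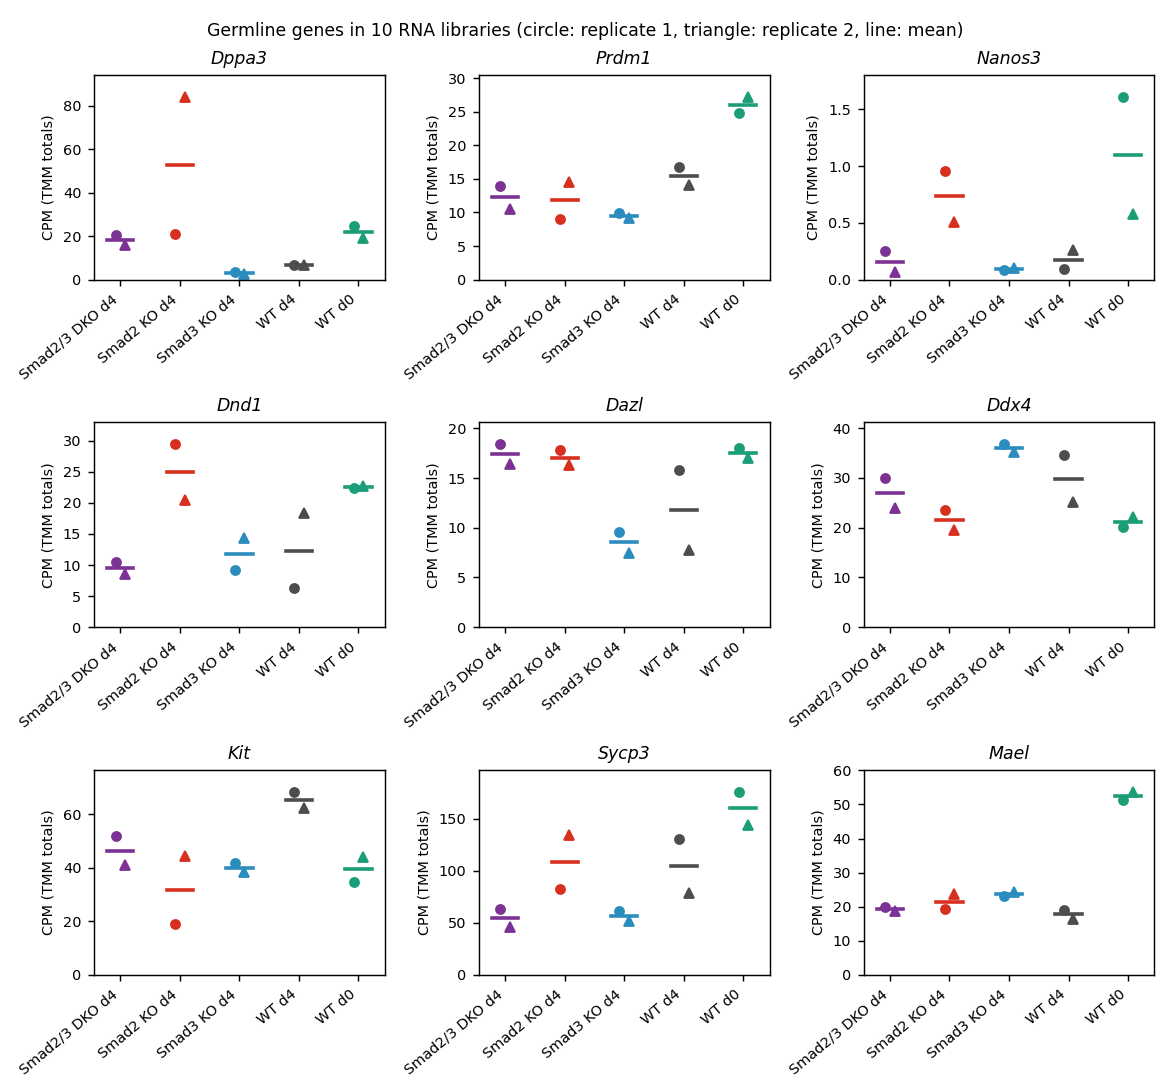
Level of each germline gene in CPM (vertical axes, linear from 0) by group, with 1 point per library and a line at the mean of 2. Dppa3 is highest in Smad2-/- replicate 2 at 84.3 CPM and lowest in the 2 Smad3-/- libraries, while Mael is at 51.3 and 53.8 CPM at day 0 and at 24.4 CPM or less in all day 4 libraries.

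Within 200000 bases on either side of Dppa3 lay 19 annotated genes, Dppa3 included, of which 14 were tested, and in Smad2/3DKO over Smad3-/- and in Smad2-/- over wild type the other genes tested in this window had smaller fold changes than Dppa3. Gdf3, a TGF-beta family ligand next to Dppa3 on the side of its start, was the only one of these other genes called between Smad2/3DKO and Smad3-/- (log2 fold change 0.62, SE 0.18, edgeR adjusted p = 0.0459). In that contrast 15.5% of all genes tested were called. Nanog, a core pluripotency factor on the other side, had a log2 fold change of 0.31 (SE 0.17; edgeR adjusted p = 0.260) in that contrast. Against wild type, Nanog fell in Smad3-/- embryoid bodies (log2 fold change -1.13, SE 0.17; edgeR adjusted p = 0.0321). It fell in Smad2/3DKO too (log2 fold change -0.82, SE 0.17; edgeR adjusted p = 0.00721), where Dppa3 was on the higher side. Slc2a3, a glucose transporter, rose in Smad2/3DKO against wild type (log2 fold change 0.85, SE 0.16; edgeR adjusted p = 0.00585). C3ar1, a complement receptor gene beyond the window, had a log2 fold change of 2.65 in Smad2/3DKO over Smad3-/- (SE 0.86; edgeR adjusted p = 0.0756), at no more than 0.325 CPM.

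**Figure D2:**
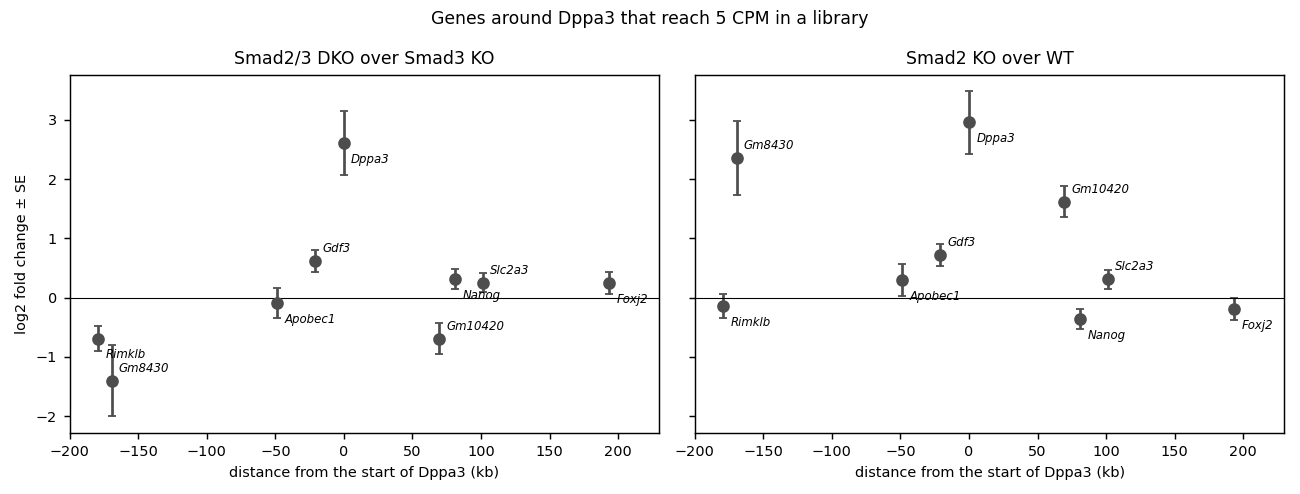
Fitted log2 fold change with its SE (vertical axis) for Dppa3 and its neighbours that reach 5 CPM in a library, by distance of the span's start from that of Dppa3 in kb. Dppa3 stands at 2.61 in Smad2/3DKO over Smad3-/- and at 2.96 in Smad2-/- over wild type, and Gdf3 at 0.62 and 0.72.

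Prdm1 (chr10:44437177-44528501, minus strand), which encodes the repressor BLIMP1 that starts the germ cell programme, had 14.0 and 10.6 CPM in Smad2/3DKO, 9.03 and 14.6 in Smad2-/-, 9.93 and 9.11 in Smad3-/-, 16.8 and 14.1 in wild-type embryoid bodies and 24.8 and 27.3 at day 0. All 8 embryoid body libraries lay below both day 0 libraries. The wild-type difference from day 0 was -0.75 on the log2 scale (SE 0.26) in CPM, but per length Prdm1 stood at 5.14 and 4.91 TPM in wild-type embryoid bodies, against 3.55 and 4.79 TPM at day 0. The direction thus depended on the scale. Smad3-/- and wild type did not overlap, with a log2 fold change of -0.70 (SE 0.26; edgeR adjusted p = 0.220).

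Nanos3 (chr8:84173731-84185217, minus strand), an RNA-binding protein needed for germ cell survival, was near the limit of detection. Its counts were 12 and 3 in Smad2/3DKO, 36 and 24 in Smad2-/-, 4 and 4 in Smad3-/-, 4 and 11 in wild-type embryoid bodies and 54 and 22 at day 0. The higher counts were those of Smad2-/- and day 0 libraries, which did not overlap the other 3 groups. The fitted log2 fold change was -2.61 (SE 0.76) for wild-type embryoid bodies against day 0 and 2.03 (SE 0.76) for Smad2-/- against wild type. Its span also holds the microRNA genes Mir181c and Mir181d.

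Dnd1 (chr18:36763671-36766214, minus strand), a protein that shields germ cell RNAs from microRNAs, had 10.6 and 8.56 CPM in Smad2/3DKO, 29.5 and 20.4 in Smad2-/-, 9.22 and 14.4 in Smad3-/-, 6.38 and 18.3 in wild-type embryoid bodies and 22.4 and 22.8 at day 0. In CPM the Smad2-/- and day 0 libraries were again the highest. Per length they were not: Dnd1 stood at 12.6 and 10.2 TPM in Smad2/3DKO, 20.6 and 12.9 in Smad2-/-, 10.2 and 16.1 in Smad3-/-, 6.36 and 19.3 in wild-type embryoid bodies and 12.0 and 15.5 at day 0. The 2 wild-type libraries were too far apart to place the knockouts, and the log2 fold change of Smad2/3DKO over wild type was -0.37 (SE 0.43; edgeR adjusted p = 0.591). Smad2/3DKO lay below Smad2-/- by 1.38 on the log2 scale (log2 fold change -1.38, SE 0.44), and by 0.55 in the ratio of mean TPM (log2 ratio -0.55). Dnd1 overlaps Wdr55 on the other strand. No source used here says whether counting respected strand, and the reads of the pair may be mixed.

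Kit (chr5:75574916-75656722, plus strand), the receptor for KIT ligand that keeps germ cells alive and migrating, had 51.7 and 41.1 CPM in Smad2/3DKO, 19.0 and 44.3 in Smad2-/-, 41.9 and 38.3 in Smad3-/-, 68.6 and 62.5 in wild-type embryoid bodies and 34.8 and 44.0 at day 0. All 6 knockout libraries lay below both wild-type embryoid body libraries. Neither tested difference passed: the log2 fold change was -0.50 in Smad2/3DKO (SE 0.33; edgeR adjusted p = 0.324) and -0.71 in Smad3-/- (SE 0.34; edgeR adjusted p = 0.318). Smad2-/- differed from wild type by -1.05 (SE 0.34), and by -0.44 once the trend with gene length was taken out.

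The transcript length assigned to Kit differed between groups. The mean transcript length that RSEM assigned to Kit was 5001 and 5192 bases in Smad2/3DKO, 3145 and 3304 in Smad2-/-, 5057 and 5082 in Smad3-/-, 4982 and 5182 in wild-type embryoid bodies, and 3119 and 3333 at day 0. Smad2-/- and day 0 libraries formed a short group and the other 6 libraries a long one, with no overlap. The annotation holds protein-coding Kit transcripts of 5241 and 5214 bases and, inside the last part of the gene, transcripts with a retained intron of 3175 and 3104 bases. The log2 difference in length of Smad2-/- from wild type was -0.66, which lay at percentile 3.8 of 9117 genes with several transcripts and 100 or more counts, whose median was 0.003. Prdm1 went the other way, with 5281 and 5269 bases in Smad2-/- against 4998 and 4091 in wild type. The 4 libraries with short Kit are the same 4 with the high ribosomal protein share; the part of that in the Kit lengths was not tested.

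**Figure D3:**
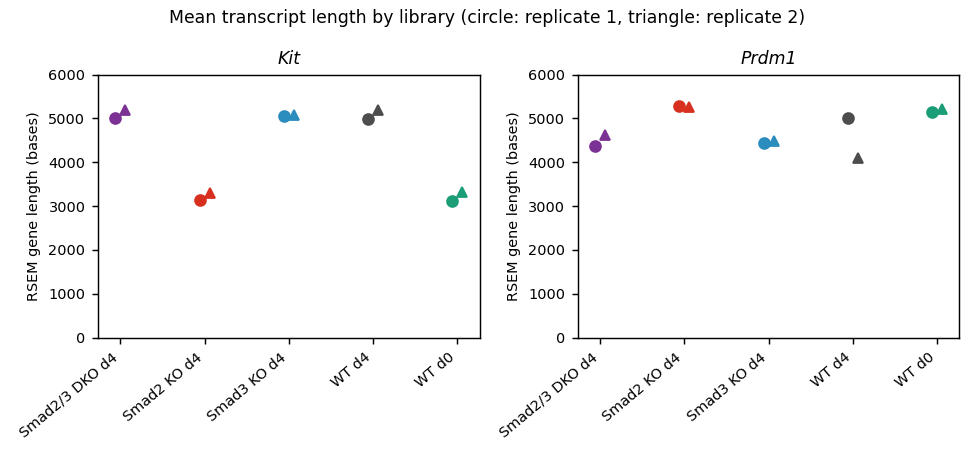
Mean transcript length in bases (vertical axes, from 0) that RSEM assigned to Kit and Prdm1, with 1 point per library in each of 5 groups. Kit lies at 3119 to 3333 bases in Smad2-/- and day 0 libraries and at 4982 to 5192 bases in the other 6, while Prdm1 reaches 5281 bases in Smad2-/-.

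Dazl (chr17:50279395-50293636, minus strand), an RNA-binding translation factor that licenses germ cells for gamete formation, had 18.4 and 16.4 CPM in Smad2/3DKO, 17.8 and 16.3 in Smad2-/-, 9.59 and 7.48 in Smad3-/-, 15.8 and 7.73 in wild-type embryoid bodies and 18.05 and 16.98 at day 0. Both Smad2/3DKO libraries were above both Smad3-/- libraries. That difference was 2.04-fold in the means and narrowly missed the threshold (log2 fold change 1.03, SE 0.31; edgeR adjusted p = 0.0523). Per length, Dazl stood at 10.7 and 9.69 TPM in Smad2/3DKO, the highest of the 10 libraries.

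Ddx4 (chr13:112598333-112652475, minus strand), the germ granule helicase also called Vasa, had its order of groups nearly turned round from that of Dppa3. It had 30.1 and 23.9 CPM in Smad2/3DKO, 23.6 and 19.5 in Smad2-/-, 36.8 and 35.2 in Smad3-/-, 34.6 and 25.1 in wild-type embryoid bodies and 20.2 and 22.1 at day 0. Its lowest values were those of Smad2-/- and day 0 libraries, and its highest those of Smad3-/-. Over the 10 libraries its log2 CPM had a Pearson correlation of -0.83 with Dppa3, a description over 5 groups of 2 that differ in library composition. Smad2/3DKO differed from Smad3-/- by -0.42 on the log2 scale (SE 0.21; edgeR adjusted p = 0.232).

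Sycp3 (chr10:88459569-88473236, plus strand), a lateral element protein of the synaptonemal complex that pairs chromosomes in meiosis, was the most abundant of the 9 per length in all libraries, at 77.6 TPM or more. It had 63.1 and 45.5 CPM in Smad2/3DKO, 82.9 and 134 in Smad2-/-, 61.2 and 52.0 in Smad3-/-, 131 and 78.8 in wild-type embryoid bodies and 176 and 144 at day 0. Smad2/3DKO and Smad3-/- both lay below wild type without overlap. The log2 fold change was -0.95 in Smad2/3DKO (SE 0.31; edgeR adjusted p = 0.0522) and -0.89 in Smad3-/- (SE 0.31; edgeR adjusted p = 0.194), and neither passed. Sycp3 counts were not whole in any of the 10 libraries, and the gene overlaps Chpt1 on the other strand.

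Mael (chr1:166201201-166238747, minus strand), a germ granule protein of the piRNA pathway that restrains transposons, had 19.8 and 18.9 CPM in Smad2/3DKO, 19.2 and 23.7 in Smad2-/-, 23.2 and 24.4 in Smad3-/-, 19.1 and 16.4 in wild-type embryoid bodies and 51.3 and 53.8 at day 0. Day 0 stood alone. Wild-type embryoid bodies were lower by a log2 fold change of -1.57 (SE 0.18), and per length they stood at 20.5 and 16.7 TPM, against 26.5 and 35.2 TPM at day 0. In CPM the day 4 genotypes lay close together, with a log2 fold change of 0.42 in Smad3-/- over wild type (SE 0.17; edgeR adjusted p = 0.258) and 0.12 in Smad2/3DKO over wild type (SE 0.17; edgeR adjusted p = 0.662). Per length Smad2-/- was the lowest, at 12.9 and 14.5 TPM, and its log2 difference from wild type was 0.27 in CPM and -0.44 in TPM. In mean CPM, Ddx4, Sycp3 and Mael, the 3 whose promoters hold both motifs, had 3 different orders of groups. In mean TPM, Ddx4 and Mael had the same order of day 4 groups. It ran from Smad3-/- (19.3 and 26.3 TPM) through Smad2/3DKO (15.5 and 22.8) and wild type (15.4 and 18.5) to Smad2-/- (7.12 and 13.7). For Ddx4 the Smad2/3DKO and wild-type libraries overlapped, so the order of that pair is not settled. Sycp3 had another order, from wild type (158 TPM) through Smad2-/- (102) and Smad2/3DKO (92.0) to Smad3-/- (90.3). Whether the motifs bear on these levels was not tested.

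Counted over the 9 genes, none was called in Smad3-/- against wild type, where 0.555% of all genes tested were called. At an unadjusted p under 0.05 there were 4 in that contrast, Dppa3, Prdm1 and Sycp3 lower and Mael higher, and DESeq2 called 0. The share of all genes at that unadjusted level is not given, so nothing is read from unadjusted counts here or below. None was called in Smad2/3DKO against wild type, against 23.1% of all genes, with 2 at an unadjusted p under 0.05. DESeq2 called 2 there, and edgeR with a block for the series of table names called Sycp3 lower (log2 fold change -1.0, adjusted p = 0.0432). Smad3-/- and Smad2/3DKO against wild type share the wild-type libraries with the contrasts behind the choice. The remaining counts involve those contrasts behind the choice or the Smad2-/- libraries, and nothing is read from them. Between wild-type embryoid bodies and day 0, 4 of 9 passed, all lower (Dppa3, Prdm1, Nanos3 and Mael), against 52.1% of all genes in either direction. With library totals 2 were higher and 3 lower, and with limma on either TPM setting 2 were higher and 1 lower. Smad2-/- against wild type had 2 (Dppa3 higher and Kit lower), against 35.5% in either direction and 20.1% lower. Smad2-/- against Smad3-/- had 5 (Dppa3, Nanos3, Dazl and Sycp3 higher and Ddx4 lower), against 33.6%. Smad2/3DKO against Smad2-/- had 4, all lower (Dppa3, Nanos3, Dnd1 and Sycp3), against 39.6%. This count depended on the scale: it was 0 once the length trend was taken out, and limma on log2(TPM + 1) called 4 higher and 0 lower, and on log2(TPM + 0.1) 3 higher and 0 lower. Smad2-/- against day 0 had 2, both lower (Prdm1 and Mael), against 21.9% in either direction and 9.27% lower. The median log2 fold change of the 9 genes was 0.21 in Smad2/3DKO over Smad3-/-, -0.15 in Smad2/3DKO over wild type and -0.70 in Smad3-/- over wild type, against medians of -0.01, -0.05 and -0.04 over all genes tested.

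**Figure D4:**
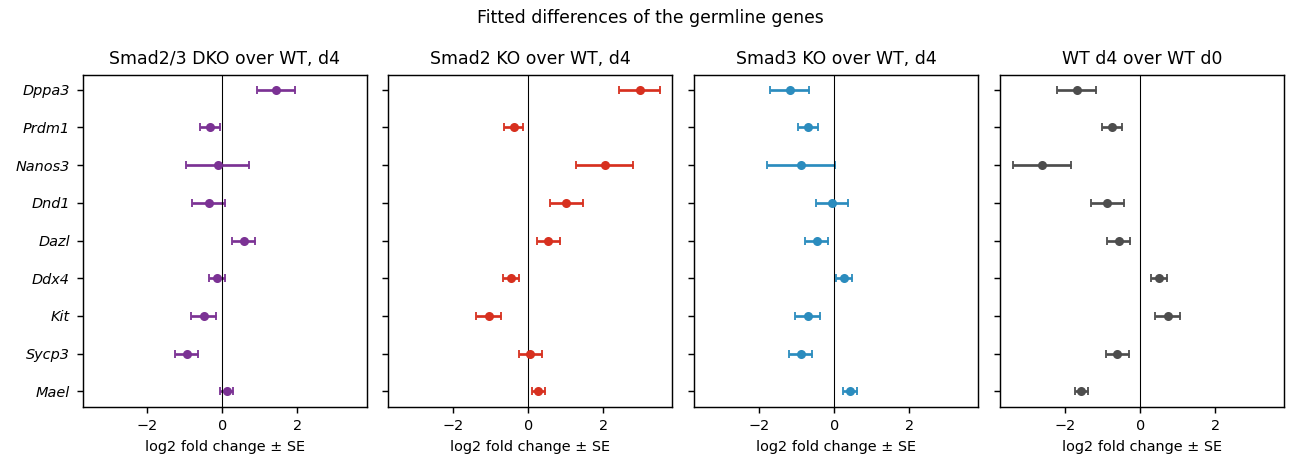
Fitted log2 fold change with its SE (horizontal axes) of each germline gene in 4 contrasts. Dppa3 is at 1.43 in Smad2/3DKO, 2.96 in Smad2-/- and -1.18 in Smad3-/- over wild type, and Mael is at -1.57 in wild-type day 4 over day 0.

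Several other genes of meiosis rose in the double knockout, and most did not pass. Of 19 meiosis genes tested, 6 were called higher and 0 lower in Smad2/3DKO against wild type, where 10.8% of all genes were called higher. Against Smad3-/- the count was also 6 higher and 0 lower, where 7.53% of all genes were called higher. Over 21 other settings the counts were 4 to 7 higher against wild type and 4 to 9 higher against Smad3-/-, with 0 lower in all of them. The median log2 fold change of the 19 genes was 0.36 against wild type and 0.68 against Smad3-/-.

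Hormad2, a chromosome axis protein of meiosis, had 29.5 and 25.1 CPM in Smad2/3DKO, 3.63 and 4.40 in Smad2-/-, 2.69 and 2.99 in Smad3-/-, 2.29 and 1.59 in wild-type embryoid bodies and 13.7 and 11.3 at day 0. The Smad2/3DKO libraries were above all others, day 0 included, and the log2 fold change over wild type was 3.81 (SE 0.27; edgeR adjusted p = 3.99e-05). Stag3, a cohesin subunit of meiosis, had 168 and 190 CPM in Smad2/3DKO, 55.3 and 89.8 in Smad2-/-, 59.4 and 55.0 in Smad3-/-, 67.0 and 59.9 in wild-type embryoid bodies and 151 and 167 at day 0. It rose over wild type (edgeR adjusted p = 0.00167) and over Smad3-/-, there with a log2 fold change of 1.65 (SE 0.23; edgeR adjusted p = 0.00176). Stra8, the retinoic acid responsive gatekeeper of meiotic entry, had 8.10 and 4.01 CPM in Smad2/3DKO, 6.75 and 7.45 in Smad2-/-, 0.688 and 0.642 in Smad3-/-, 0.983 and 1.24 in wild-type embryoid bodies and 5.68 and 4.42 at day 0. It was high in both genotypes that lack Smad2 and at day 0, as Dppa3 was, and its log2 fold change in Smad2/3DKO over Smad3-/- was 3.18 (SE 0.39; edgeR adjusted p = 0.000964). Hormad1 rose in that contrast as well (log2 fold change 2.20, SE 0.27; edgeR adjusted p = 0.00102). Sycp3 stood at -0.06 there (SE 0.30; edgeR adjusted p = 0.927).

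Of 17 germline genes of the class known to be silenced by DNA methylation, a list that holds Dazl, Ddx4, Sycp3 and Mael, 5 were called higher and 0 lower in Smad2/3DKO against wild type, where 10.8% of all genes were called higher. None of the 5 was 1 of those 4. Stk31 had 16.9 and 13.8 CPM in Smad2/3DKO, against 6.22 and 5.52 in wild-type embryoid bodies (log2 fold change 1.39, SE 0.23; edgeR adjusted p = 0.00249). Tex101 rose by a log2 fold change of 2.55 (SE 0.43; edgeR adjusted p = 0.00305), at no more than 3.18 CPM. Tuba3b also rose (2.75, SE 0.48; edgeR adjusted p = 0.00357), but it and Tuba3a are near-identical tubulin copies whose reads cannot be well separated. Against Smad3-/- 4 were called higher and 0 lower, where 7.53% of all genes were called higher, and 0 higher without Smad3-/- replicate 2. In wild-type embryoid bodies against day 0, 9 of the 17 were lower and 0 higher. Of the 19 meiosis genes, 11 were lower and 2 higher. Of all genes, 23.2% were lower and 28.9% higher in that contrast.

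**Figure D5:**
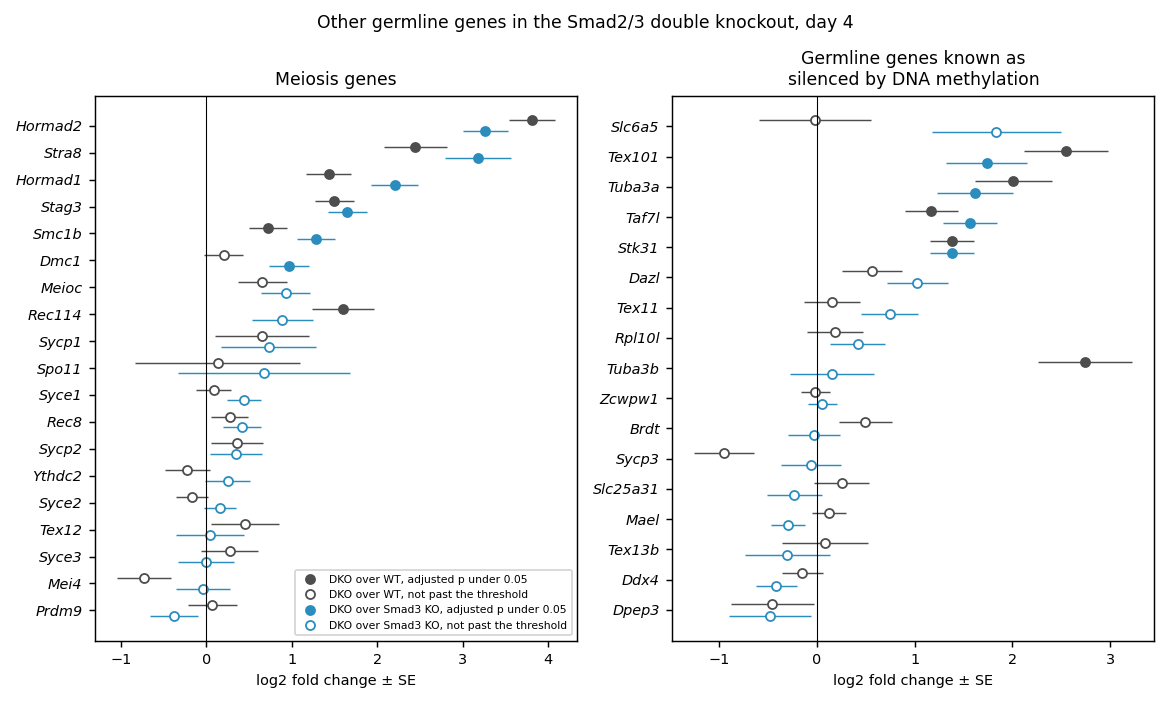
Fitted log2 fold change with its SE (horizontal axes) of meiosis genes and of germline genes known to be silenced by DNA methylation, in Smad2/3DKO over wild type and over Smad3-/-; filled points passed an adjusted p under 0.05. Hormad2 stands at 3.81 and 3.27, and no filled point lies below 0.

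Some genes of the machinery that silences this class differed between genotypes. Dnmt3b, a de novo DNA methyltransferase, had 205 and 205 CPM in Smad2/3DKO, 276 and 352 in Smad2-/-, 624 and 616 in Smad3-/-, 1293 and 1453 in wild-type embryoid bodies and 205 and 238 at day 0. It fell in Smad2/3DKO (log2 fold change -2.74, SE 0.19; edgeR adjusted p = 3.50e-05) and in Smad3-/- (log2 fold change -1.15, SE 0.18; edgeR adjusted p = 0.0351). Dnmt3a fell in Smad2/3DKO as well (log2 fold change -1.14, SE 0.18; edgeR adjusted p = 0.00228). Dnmt3l, a catalytically inactive partner of both, rose there (log2 fold change 1.45, SE 0.26; edgeR adjusted p = 0.00392). Of the 20 genes of this list, 3 were called higher and 4 lower in Smad2/3DKO against wild type, where 10.8% of all genes were called higher and 12.3% lower, so the list's counts were not far from those of genes at large. In Smad3-/- 0 were higher and 1 lower, where 0.431% of all genes were called higher and 0.123% lower. In Smad2-/- 1 was higher and 8 lower, where 15.4% of all genes were called higher and 20.1% lower. With the length trend taken out, the Smad2-/- counts were 1 and 3. Whether these levels bear on the germline genes was not tested.

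Genes of germ cell specification split in the double knockout, with 5 of 18 called higher and 7 lower against wild type, where 10.8% of all genes were called higher and 12.3% lower. Tfap2c, a transcription factor of germ cells and also of trophoblast, had 172 and 169 CPM in Smad2/3DKO, 61.2 and 84.4 in Smad2-/-, 24.4 and 26.4 in Smad3-/-, 23.8 and 27.6 in wild-type embryoid bodies and 49.8 and 53.8 at day 0. Its log2 fold change in Smad2/3DKO over wild type was 2.73 (SE 0.20; edgeR adjusted p = 4.02e-05). Prdm14, the partner of Prdm1 and Tfap2c in germ cell fate, had 7.75 and 7.42 CPM in Smad2/3DKO, 4.32 and 7.38 in Smad2-/-, 2.04 and 1.58 in Smad3-/-, 4.14 and 3.45 in wild-type embryoid bodies and 19.7 and 20.3 at day 0. It was higher in Smad2/3DKO than in Smad3-/- by a log2 fold change of 2.06 (SE 0.30; edgeR adjusted p = 0.00216), while Prdm1 stood at 0.37 there (SE 0.26; edgeR adjusted p = 0.393).

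Kitl, the ligand of KIT, had 35.8 and 37.8 CPM in Smad2/3DKO, 7.55 and 4.50 in Smad2-/-, 6.86 and 5.90 in Smad3-/-, 7.55 and 3.35 in wild-type embryoid bodies and 1.11 and 1.16 at day 0. The ligand thus rose in Smad2/3DKO over wild type (log2 fold change 2.75, SE 0.39; edgeR adjusted p = 0.00114), while its receptor was not called. Bmp8b, a BMP ligand that helps to induce germ cells, rose likewise (log2 fold change 3.18, SE 0.30; edgeR adjusted p = 0.000145). Smad1, a mediator of BMP signals, fell (log2 fold change -1.31, SE 0.24; edgeR adjusted p = 0.00468), as did T (log2 fold change -8.41, SE 1.71; edgeR adjusted p = 0.00735). Of the 18, 0 were called in Smad3-/- against wild type by edgeR, where 0.555% of all genes were. At an unadjusted p under 0.05 there were 6, a count with no share of all genes beside it. DESeq2 called 1 higher and 1 lower.

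Genes of the germ granule and the piRNA pathway showed 4 of 16 higher and 2 lower in Smad2/3DKO against wild type, beside the same 10.8% and 12.3% of all genes. Gtsf1, a piRNA factor, rose (log2 fold change 2.29, SE 0.50; edgeR adjusted p = 0.00994) and Tdrd5, a Tudor protein of the granule, fell (log2 fold change -1.12, SE 0.23; edgeR adjusted p = 0.00723). Without Smad2/3DKO replicate 1 the counts were 0 higher and 1 lower. Against Smad3-/- 3 were higher and 4 lower, beside 7.53% and 8.01% of all genes, and 0 higher and 1 lower without either of the Smad3-/- libraries.

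Markers of other cell types moved with these groups. The summed level of 14 trophoblast markers was 478 to 554 TPM in Smad2/3DKO, 81.3 to 167 in Smad2-/-, 83.0 to 90.6 in Smad3-/-, 104 to 107 in wild-type embryoid bodies and 8.52 to 10.0 at day 0. Of the 13 tested, 11 were called higher in Smad2/3DKO against wild type, where 10.8% of all genes were, and 11 in Smad2-/-, where 15.4% were. Eomes, which primitive streak cells also express, was the 1 called lower, with a log2 fold change of -5.21 in Smad2/3DKO (SE 0.61, edgeR adjusted p = 0.000449) and -2.85 in Smad2-/- (SE 0.54). Visceral endoderm markers summed to 301 to 308 TPM in Smad2/3DKO, 55.8 to 91.5 in Smad2-/-, 296 to 302 in Smad3-/- and 369 to 384 in wild-type embryoid bodies. Of 12 tested, 9 were called lower and 1 higher in Smad2/3DKO against wild type, beside 12.3% and 10.8% of all genes. Apob had a log2 fold change of -5.41 there and Rhox5 of 1.97. In Smad2/3DKO against Smad3-/- 4 were called lower and 1 higher, beside 8.01% and 7.53% of all genes. Blood and endothelial markers, cells that can express Kit, summed to 38.0 to 47.2 TPM in Smad2/3DKO and 11.6 to 24.9 TPM in the other groups. The members did not move together in Smad2/3DKO against wild type. Of 8 tested, Cdh5 and Gata1 were called higher (log2 fold changes 6.92 and 1.61), where 10.8% of all genes were. Tal1 and Runx1 were called lower (-2.57 and -1.56), where 12.3% of all genes were. Kdr stood at -0.18 (SE 0.37, edgeR adjusted p = 0.776). Markers of spermatids summed to at most 0.86 TPM and those of oocytes to at most 5.96 TPM in any library. The part of these cell types in the levels of the germline genes was not tested.

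For Dppa3, the genes whose log2(CPM + 1) was most alike over the 10 libraries were Calr, Ptgr1, C130073F10Rik, Anapc10 and Hat1, with Pearson correlations of 0.965, 0.958, 0.955, 0.954 and 0.951. The gene most alike was Wdr82 for Prdm1 (0.971), Mdfi for Dnd1 (0.990), Coq10b for Dazl (0.950), Cacna1c for Ddx4 (0.963), Cep68 for Kit (0.971), Rsl1d1 for Sycp3 (0.982) and Ppef2 for Mael (0.983). None of these 8 had another of the 9 genes among its 5 most alike, and Nanos3 was too low to be compared. Among the 9 genes, the closest pair was Prdm1 and Sycp3 (0.82), followed by Nanos3 and Dnd1 (0.78). These are descriptions over 10 libraries in 5 groups, which share group and composition differences.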

How the data were processed

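RNA from 10 libraries in 5 groups was analysed, and the 14 chromatin immunoprecipitation samples of the 24 in the series were not analysed here. The authors deposited 1 gene table per library with RSEM expected counts, TPM, FPKM (not used) and the mean transcript length, per the file headers. Tools listed in the submitters' processing notes, with no order, are RSEM, STAR, Bowtie2, HOMER and FastQC 0.11.5, and the build is mm10. The annotation release and the strand setting are not given in the sources used here. Gene IDs were matched to GENCODE M21, 53274 of 53379 without the version number.

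Expected counts were rounded and tested in 1 fit over all 5 groups with edgeR 4.0.16 (TMM, filterByExpr, quasi-likelihood F test, R 4.3.3), with p-values adjusted by Benjamini-Hochberg over 19470 genes and called under 0.05. CPM use TMM-scaled totals. The TPM values deposited by the authors were used for levels between genes, and as log2(TPM + 1) and log2(TPM + 0.1) with limma 3.58.1, where fold changes of low genes are understated. The test was checked on simulated data. Alternatives were DESeq2 1.42.0, other scalings, filters, a length offset, blocks, the compared groups alone and leaving out each library.

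The 9 genes, the other lists and the promoter motifs were chosen with earlier results of these data known. From each list up to 3 called genes with the smallest adjusted p in the commoner direction and 1 in the other were named per contrast. Bmp8b, and T in the Smad2-/- libraries, were named after their values were seen. Gene positions are those of GENCODE M21 on mm10, counted from 1. Depth was 35733249 to 53672980 expected counts per library, and 12.2 to 14.6% of all 53379 genes, those without counts included, had values that were not whole. Replicate numbers were not used as pairs: the labels give them no meaning, and the differences between replicates 1 and 2 correlated at 0.11 to 0.51 between the groups other than Smad2/3DKO and at -0.18 to -0.04 with that group.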

Additional observations from a re-analysis of the deposited data

Results flagged for a closer look

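A contrast between 2 knockouts compares their differences from the shared wild type. In Smad2/3DKO against Smad3-/- embryoid bodies the log2 fold change of Dppa3 was 2.61 (edgeR adjusted p = 0.0110). The other differences listed here rest on the Smad2-/- libraries, whose high Dppa3 was behind the choice of genes and whose Dppa3 was 21.2 and 84.3 CPM, and they are given as a description, with nothing read from a test. In Smad2-/- against Smad3-/- the log2 fold change was 4.14 for Dppa3, 2.92 for Nanos3, 1.00 for Dazl, 0.94 for Sycp3 and -0.74 for Ddx4. In Smad2/3DKO against Smad2-/- it was -1.53 for Dppa3, -2.15 for Nanos3, -1.38 for Dnd1 and -1.0 for Sycp3.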

How the results depend on the processing

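Of 1486 values of single germline genes under other settings, 1272 kept their side of the threshold and were counted as the same. These kept their direction or, where uncalled, changed sign by no more than the SE of the main value. Another 72 newly passed, 100 no longer passed, 38 uncalled values moved and 4 reversed. The reversed values were Prdm1 in wild-type embryoid bodies against day 0, at 0.23 with log2(TPM + 1) and 0.28 with log2(TPM + 0.1), and Mael in Smad2/3DKO against Smad2-/-, at 0.70 and 0.74. The TPM scale moved the median of all genes by 0.63 in the first of these contrasts and by 0.65 in the second. The count of the 9 genes called moved as follows. In wild-type embryoid bodies against day 0 (4, all lower) it was 7 with no filter, 2 higher and 3 lower with library totals, and 2 higher and 1 lower with either TPM setting. In Smad2/3DKO against wild type (0) it was 1 with library totals, 2 with no filter, 1 with a block for library name series, 1 with the compared groups alone and 2 with DESeq2. In Smad2-/- against wild type (2) it was 1 with the length offset, 4 with no filter, 1 with the compared groups alone and 4 with either TPM setting. In Smad3-/- against wild type (0) it was 2 with no filter. In Smad2-/- against Smad3-/- (5) it was 3 with library totals, the length offset or either TPM setting. In Smad2/3DKO against Smad2-/- (4, all lower) it was 0 with library totals or the length offset, and the direction turned with TPM: 4 higher with log2(TPM + 1) and 3 higher with log2(TPM + 0.1), 0 lower in both. In Smad2/3DKO against Smad3-/- (1) it was 2 with no filter or DESeq2, 3 with the compared groups alone and 2 with the replicate block. The causes were not tested.

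Leaving out 1 library at a time gave 1 to 5 calls in wild-type embryoid bodies against day 0, 0 to 2 in Smad2/3DKO against wild type, 1 to 5 in Smad2-/- against wild type, 0 to 2 in Smad3-/- against wild type, 1 to 6 in Smad2-/- against Smad3-/-, 0 to 4 in Smad2/3DKO against Smad2-/-, 0 to 2 in Smad2/3DKO against Smad3-/- and 1 to 3 in Smad2-/- against day 0. A lone library was then assumed to vary like the other groups. With 2 libraries per group, a difference well beyond its SE could still miss the threshold. Sycp3 in Smad2/3DKO against wild type was such a case (log2 fold change -0.95, SE 0.31, edgeR adjusted p = 0.0522). Nanos3 rests on 3 to 54 counts per library.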
